A study of Mus musculus with 24 samples.

Results

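The genes described here encode proteins that store neurotransmitter in synaptic vesicles and release it. They are 36 named genes: 5 synaptotagmins, 4 SNARE proteins, 2 SNARE recycling factors, 1 clathrin adaptor, 3 synapsins, 5 other vesicle membrane proteins, 2 complexins, 6 active zone and priming proteins, Rab3a with its effector Rph3a and with Doc2b, 2 vesicular glutamate transporters, and 3 genes of GABA synthesis and vesicular transport. Members were set by a list of names, with no threshold on their values. Each was read through the array probes whose transcript maps to the gene, and the brightest probe stood for the gene. All 36 were among the 16935 genes tested, and in each the brightest probe was well above background on all 24 arrays, so no filter on dim probes selected among them.

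Total RNA of cerebellum from C57BL/6 mice killed at postnatal day 28 was hybridised to 24 single-colour Agilent arrays, which form 12 groups of 2. Derlin-1 and Derlin-2 are proteins of the endoplasmic reticulum (ER) membrane that help to remove misfolded proteins, and the study asks what their loss from the nervous system, and 4-phenylbutyrate (4PBA, a chemical chaperone), do to cerebellar transcripts. Knockout (KO) mice were Derl1flox/flox or Derl2flox/flox mice carrying a Cre recombinase under the nestin promoter, which acts in neural progenitors and so reaches neurons and most glia. Controls were Derlin-1flox/flox or Derlin-2flox/flox mice, for which the labels name no Cre, so Cre and the deletion cannot be told apart. Mice received 200 mg/kg 4PBA or water (vehicle) intraperitoneally once a day from day 14 to day 28. A numbered Derlin-1 series holds control and KO groups with vehicle and with 4PBA, the Derlin-2 line holds the same 4, and a lettered Derlin-1 series holds control and KO groups with 4PBA and groups whose labels name no injection, called untreated here. Vehicle and untreated arrays of the Derlin-1 line are together called arrays without 4PBA. Each of these 3 sets of 8 arrays lay on a slide of its own, with group and position on the slide coinciding. Nothing in the labels says that the 2 arrays of a group came from separate animals, so p-values measure only the spread between these arrays, which may be technical.

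A level below is the log2 intensity of a probe minus the 75th percentile of its array, and a change is a difference of such levels. A gene was called at a Benjamini-Hochberg adjusted p under 0.05 in limma, over all genes tested. Spots well above background made up 57.7% to 68.4% of an array. Before the results, 2 arrays have to be named. The array with the label Derlin-2 KO vehicle 1 had a Derl2 level of 1.72, against 0.18 to 0.48 on the other 3 arrays labelled Derlin-2 KO and 1.40 to 1.58 on the Derlin-2 controls. Its Derl3 level of -1.85 goes with the label, since the other arrays labelled Derlin-2 KO had -1.96 to -0.61 and the Derlin-2 controls -3.03 to -2.75. The array with the label Derlin-1 KO 4PBA b had a Derl3 level of -2.27, near the lettered 4PBA controls at -2.54 and -2.18, while the other 7 arrays labelled Derlin-1 KO lay between -0.63 and 0.37. On the Derl1 probe KO and control arrays of the Derlin-1 line overlapped (change without 4PBA -0.33, limma adjusted p 0.178).

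Synaptic vesicles are filled by transporters, tethered by synapsins, and docked at the active zone by large scaffolds such as Bassoon, Piccolo and RIM. Munc13 proteins (the Unc13 genes) prime them, a SNARE complex of syntaxin, SNAP-25 and synaptobrevin (VAMP) pulls vesicle and plasma membrane together, complexin clamps that complex, and a synaptotagmin triggers fusion when calcium enters. NSF with its SNAP adaptors then takes the complex apart. In the cerebellum the excitatory granule neurons, whose parallel fibres use the transporter encoded by Slc17a7, and the mossy and climbing fibres release glutamate, while Purkinje cells and the molecular layer interneurons release GABA. Syt2 and Vamp1 encode the forms known for fast, high-rate synapses of the hindbrain and cerebellum.

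Upstream sequences of 4 members are shown so that their composition can be seen: 3 that were called lower below, and Syn1, which was not called and holds several of the motifs searched. RefSeq windows of the GRCm38.p6 build were found for 29 of the 36 members (39 windows among 32851). Each sequence is the 250 bases before the annotated start, on the gene's own strand. Syt2 and Rab3a have 2 windows each, and for them the window with the most motif matches is shown. For Syt2, Rab3a, Cplx1 and Syn1 the window is at chr1:134646362-134646611 (plus strand), chr8:70754453-70754702 (plus), chr5:108550028-108550277 (minus) and chrX:20920919-20921168 (minus). Capitals mark a match, on either strand, to the GC box GGGCGG, the core of the cyclic AMP response element TGACGT, the left part of the neuronal repressor element TTCAGCACC or the ATF4 composite TGATGNAA; the motifs can overlap.
Syt2: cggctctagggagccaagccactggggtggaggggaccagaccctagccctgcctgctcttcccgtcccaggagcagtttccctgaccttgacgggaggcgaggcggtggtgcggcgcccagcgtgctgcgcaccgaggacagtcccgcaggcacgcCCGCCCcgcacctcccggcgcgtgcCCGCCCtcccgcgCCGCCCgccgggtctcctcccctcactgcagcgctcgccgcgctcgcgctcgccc
Rab3a: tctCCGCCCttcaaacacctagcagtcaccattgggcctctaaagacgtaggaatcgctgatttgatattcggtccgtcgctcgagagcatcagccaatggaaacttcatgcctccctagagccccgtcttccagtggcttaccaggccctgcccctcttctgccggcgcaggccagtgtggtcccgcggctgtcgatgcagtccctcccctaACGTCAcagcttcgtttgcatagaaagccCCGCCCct
Cplx1: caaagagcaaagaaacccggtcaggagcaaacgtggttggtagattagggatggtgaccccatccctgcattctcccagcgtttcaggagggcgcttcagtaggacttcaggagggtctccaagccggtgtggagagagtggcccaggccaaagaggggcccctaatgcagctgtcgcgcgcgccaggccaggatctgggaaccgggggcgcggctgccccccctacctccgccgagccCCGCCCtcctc
Syn1: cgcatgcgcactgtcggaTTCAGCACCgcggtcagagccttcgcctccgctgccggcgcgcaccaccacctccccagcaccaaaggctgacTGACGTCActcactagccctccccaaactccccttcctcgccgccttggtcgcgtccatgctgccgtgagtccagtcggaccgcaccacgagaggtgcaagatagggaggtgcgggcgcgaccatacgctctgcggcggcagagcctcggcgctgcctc
The GC box was in 56.4% of the members' windows and in 32.7% of all windows. Counted per gene, it was found in 21 of the 29 members and in 10 of the 12 members called below, against 35.4% of all 27025 genes with a window. The cyclic AMP response core was in Syn1 and Rab3a (6.47% of all windows), the repressor part in Syn1 (0.301%) and the ATF4 composite in Syt1 (3.45%). These are matches of letters in 250 bases and say nothing of binding.

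Loss of Derlin-1 without 4PBA came with 12 called members of 36, all of them lower in KO than in control cerebellum: Syt2, Syt11, Vamp1, Nsf, Syngr1, Sv2a, Cplx1, Pclo, Rab3a, Rph3a, Slc32a1 and Gad1. Over all genes 5.37% were called lower, 5.26% higher and 10.6% in either direction. The called changes ran from -0.61 for Syt2, which is 1.52-fold lower, to -0.22 for Sv2a, which is 1.16-fold lower. Of the members 29 had a change below 0 (51.2% of all genes), or 27 after quantile normalization between arrays. The median member change was -0.15 against -0.01 over all genes. At an unadjusted p under 0.05 there were 20 members (26.7% of all genes). In 17 members every KO array lay below every control array of its slide (12.4% of all genes), and in 1, Stx1a, every KO array lay above (11.4%).

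**Figure D1:**
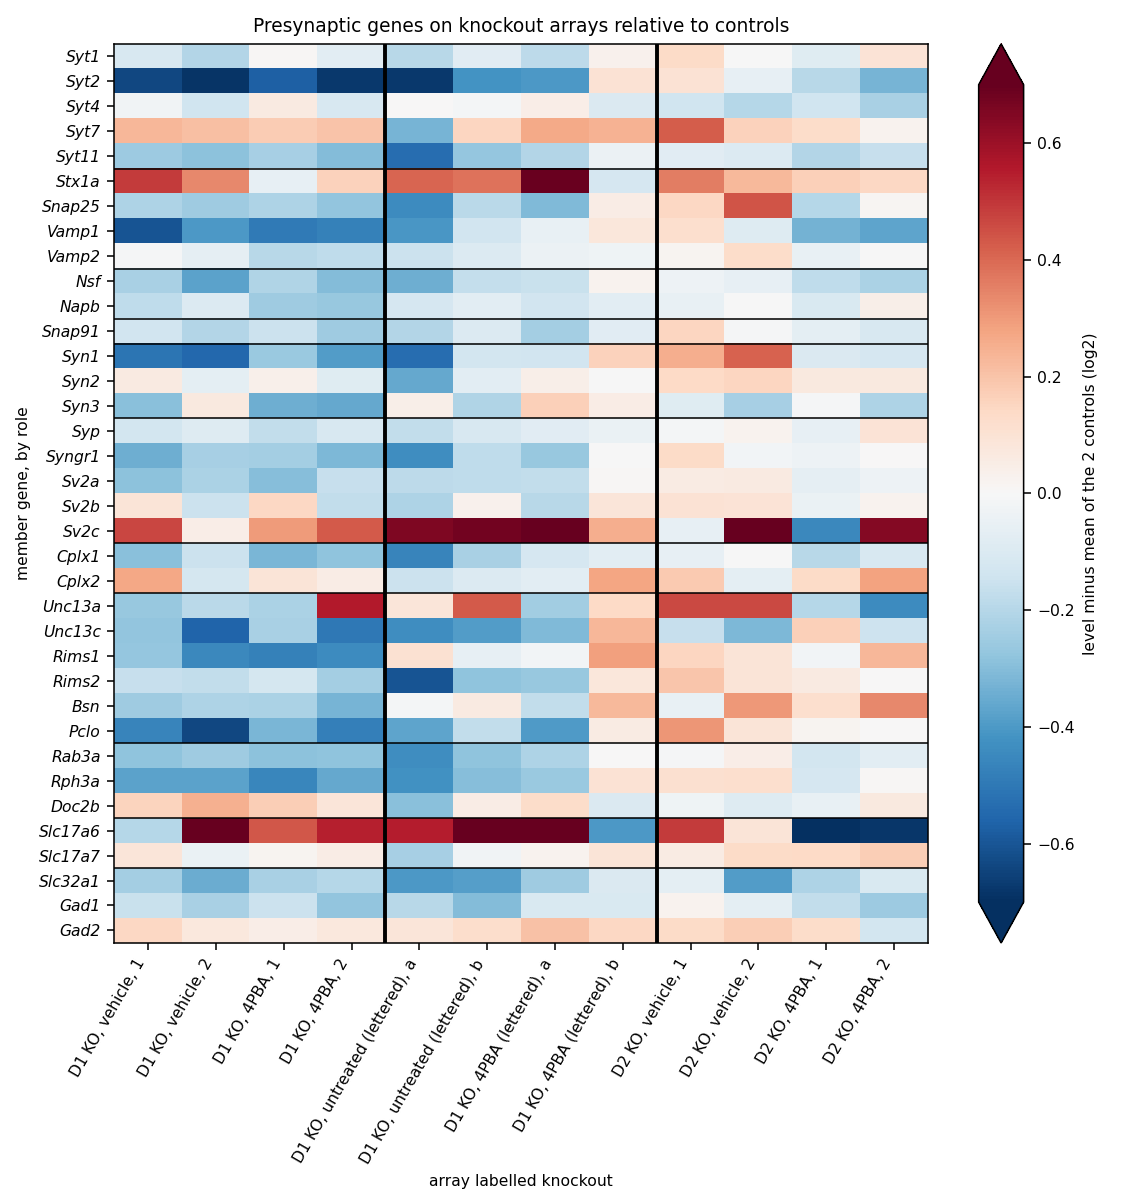
Level of each of the 36 members (rows, grouped by role) on each of the 12 arrays labelled KO (columns), minus the mean of the 2 controls of the same slide and injection; blue is lower, red is higher, on the log2 scale, and colours saturate at 0.7. Most rows are blue over the first 7 Derlin-1 columns, while the array with the label Derlin-1 KO 4PBA b and the Derlin-2 columns are mixed.

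**Figure D2:**
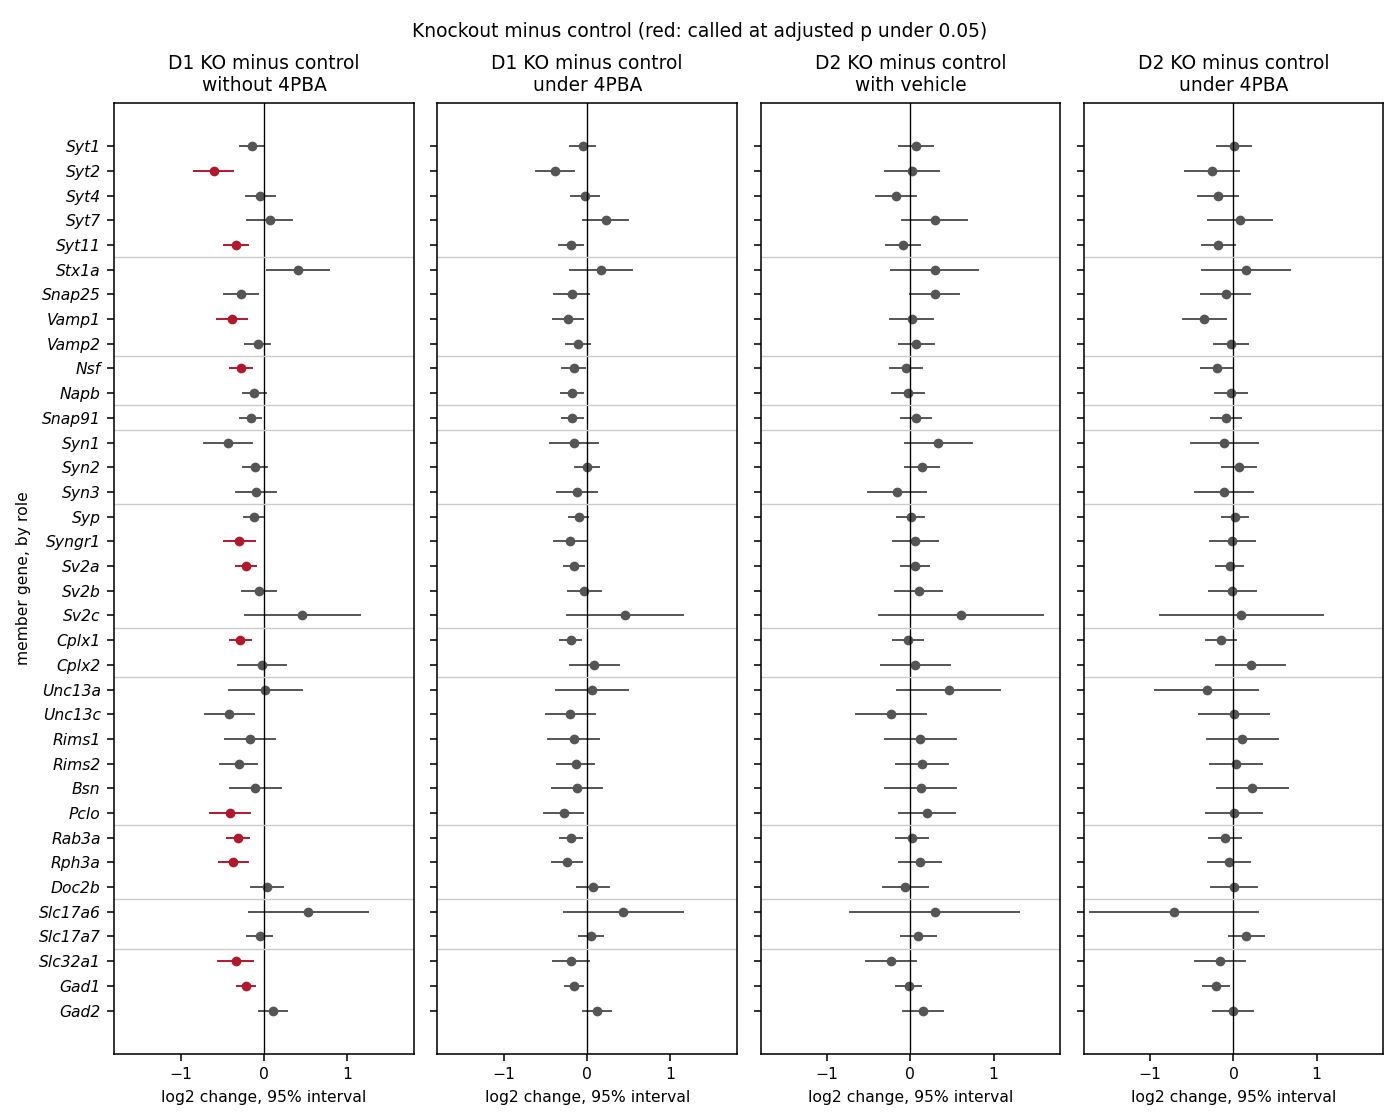
Change of each member (KO minus control, log2, with its 95% interval from limma) in the 4 comparisons of KO with control; D1 and D2 stand for the Derlin-1 and Derlin-2 lines, and red marks the 12 called members. Only the panel of Derlin-1 KO without 4PBA holds called members.

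Among the synaptotagmins Syt2 and Syt11 fell. Syt2, the fast calcium sensor named above, read 0.06 and 0.0037 in vehicle controls and -0.61 and -0.66 in vehicle KO of the numbered series. In the lettered series the untreated controls had -0.26 and 0.07 and the KO arrays -0.77 and -0.51. Within each slide both KO arrays were below both controls, and the change was -0.61 (SE 0.11, limma adjusted p 0.00492). Its second, dimmer probe changed by -0.39 (adjusted p 0.0277 when every probe was tested in limma, where 2.55% of probes were called lower and 2.53% higher). Syt11, a synaptotagmin that does not bind calcium, read 5.12 on both vehicle controls, 4.87 and 4.83 on vehicle KO, 5.24 and 5.32 on untreated controls and 4.74 and 5.01 on untreated KO. Its change was -0.34 (SE 0.07, limma adjusted p 0.00709), again with no overlap in either series. Syt1, the major sensor of the forebrain, had a change of -0.15 and was not called (limma adjusted p 0.179), and Syt4, linked to dense-core vesicles, and Syt7, the slow sensor of asynchronous release, had -0.04 and 0.07.

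Of the SNARE proteins Vamp1 was called. Vamp1 encodes synaptobrevin-1 and read 3.01 and 3.05 on vehicle controls against 2.42 and 2.63 on vehicle KO, and 3.28 and 3.40 on untreated controls against 2.93 and 3.20 on untreated KO. The arrays did not overlap within either series, and the change was -0.39 (SE 0.09, limma adjusted p 0.0125). Vamp2, the synaptobrevin of most synapses, had -0.08 (limma adjusted p 0.51). Snap25, the plasma membrane SNARE, had levels of 6.17 and 6.21 against 5.97 and 5.94 with vehicle, and 5.69 and 5.88 against 5.34 and 5.59 untreated. Its KO arrays were below the controls in both series, but its change of -0.27 missed the threshold (SE 0.10, limma adjusted p 0.0841). Stx1a, the syntaxin of the complex, had the opposite sign with 0.40 (SE 0.17, limma adjusted p 0.154). Nsf, the ATPase that recycles SNARE complexes, fell: 4.88 and 4.72 on vehicle controls, 4.57 and 4.42 on vehicle KO, 4.02 and 3.98 on untreated controls and 3.66 and 3.83 on untreated KO. That change was -0.28 (SE 0.06, limma adjusted p 0.0156), but its 2 dimmer probes of the same transcript had -0.08 and -0.05 (adjusted p 0.714 and 0.908 with every probe tested in limma). Its adaptor Napb had -0.12, and Snap91, which encodes the clathrin adaptor AP180 of vesicle retrieval, read 3.51 and 3.61 against 3.42 and 3.35, and 3.29 and 3.32 against 3.10 and 3.21. Snap91 was lower on every KO array than on the controls of its slide, with a change of -0.16 (SE 0.06, limma adjusted p 0.0996), so it was not called.

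No synapsin was called. Syn1 had the widest gap of the 3, with 4.21 and 4.50 on vehicle controls, 3.84 and 3.80 on vehicle KO, 4.46 and 4.88 on untreated controls and 4.14 and 4.55 on untreated KO. Untreated KO array b overlapped the controls, and the change was -0.43 (SE 0.13, limma adjusted p 0.0535). Syn2 and Syn3 had -0.11 and -0.10. Of the vesicle membrane proteins Sv2a, a transporter-like glycoprotein of nearly all vesicles and the binding site of levetiracetam, fell by 0.22 (SE 0.06, limma adjusted p 0.0242). Its controls read 2.95, 3.0, 3.15 and 3.06 and its KO arrays 2.69, 2.75, 2.92 and 2.93, in the order vehicle then untreated. All KO arrays were below the controls of their slide. Sv2b had -0.06, and synaptophysin (Syp) had -0.13 with an adjusted p of 0.144 in limma. Sv2c, the third Sv2 form, read -4.16 and -4.07 against -3.65 and -4.07 with vehicle, and -5.30 and -4.71 against -4.35 and -4.33 untreated. Its KO arrays lay above the controls in the lettered series and overlapped them in the numbered one, with 0.46 (95% interval -0.23 to 1.16, limma adjusted p 0.393). This probe is the brighter of the 2 Sv2c probes through the Derlin-2 arrays alone, and the other one had 0.25 here.

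Syngr1, which encodes the vesicle protein synaptogyrin-1, has 2 probes on different RefSeq transcripts, with changes of opposite sign. The brighter probe read 1.72 and 1.73 on vehicle controls, 1.39 and 1.50 on vehicle KO, 2.66 and 2.54 on untreated controls and 2.17 and 2.43 on untreated KO. Its change of -0.30 (SE 0.09) passed narrowly in limma, with an adjusted p of 0.0495. The dimmer probe read 0.70 and 0.78 on vehicle controls, 1.18 and 1.19 on vehicle KO, 1.20 and 0.66 on untreated controls and 1.42 and 1.27 on untreated KO. That probe had 0.43 (SE 0.14) and an adjusted p of 0.087 when limma was run on every probe, where the brighter probe had 0.0835. The call for Syngr1 therefore rests on its brighter probe in the fit of the brightest probe per gene. Neither probe was called with every probe tested.

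Of the 2 complexins Cplx1 was called. Cplx1, the complexin of the hindbrain and of inhibitory neurons, read 4.91 and 4.85 on vehicle controls, 4.59 and 4.73 on vehicle KO, 5.27 and 5.22 on untreated controls and 4.78 and 5.02 on untreated KO. No array overlapped within a series, and the change was -0.28 (SE 0.06, limma adjusted p 0.00975). Cplx2 had -0.02 (95% interval -0.32 to 0.27, limma adjusted p 0.931). The difference between the 2 complexins was not tested.

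Of the 6 active zone and priming genes 5 had a change below 0 and 1, Pclo, was called. Pclo encodes Piccolo, a scaffold of the active zone, and read 3.18 and 3.19 on vehicle controls, 2.72 and 2.54 on vehicle KO, 2.46 and 2.87 on untreated controls and 2.30 and 2.49 on untreated KO. Control array a overlapped the KO arrays in the lettered series, and the change was -0.41 (SE 0.11, limma adjusted p 0.0319). The other Pclo probes had -0.11 and -0.48, neither called with every probe tested in limma (adjusted p 0.735 and 0.615). Unc13c, the Munc13 form enriched in cerebellar granule neurons, read 2.43 and 2.11 against 1.99 and 1.71 with vehicle and 1.68 and 2.09 against 1.45 and 1.50 untreated. Its KO arrays were lower in both series, with a change of -0.42 (SE 0.14, limma adjusted p 0.0704). Rims2, a RIM scaffold, read 1.29 and 1.1 against 1.03 and 1.02, and 1.01 and 1.44 against 0.62 and 0.95. Here too no KO array overlapped its controls, but the change of -0.31 was not called (SE 0.10, limma adjusted p 0.0741). Rims1 and Bsn had -0.17 and -0.10. Unc13a, the main Munc13 of excitatory synapses, had 0.01 with a wide interval from -0.42 to 0.45, since its dim probe read -4.04 and -3.88 on vehicle controls, -4.22 and -4.15 on vehicle KO, -3.66 and -3.27 on untreated controls and -3.38 and -3.04 on untreated KO.

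Rab3a and Rph3a fell together. Rab3a, the small GTPase of synaptic vesicles, read 6.30 and 6.41 on vehicle controls, 6.08 and 6.11 on vehicle KO, 6.38 and 6.25 on untreated controls and 5.88 and 6.03 on untreated KO. Its change was -0.31 (SE 0.06, limma adjusted p 0.00805), and a second probe on another transcript gave -0.31 as well (limma adjusted p 0.0362 with every probe tested). Rph3a, which encodes the Rab3 effector rabphilin, read 1.38 and 1.20 against 0.92 on both vehicle KO arrays, and 1.74 and 1.95 against 1.42 and 1.55 untreated. Its change was -0.37 (SE 0.08, limma adjusted p 0.0142). Neither gene's arrays overlapped within a series. Doc2b, a calcium sensor of spontaneous release, had 0.04.

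**Figure D3:**
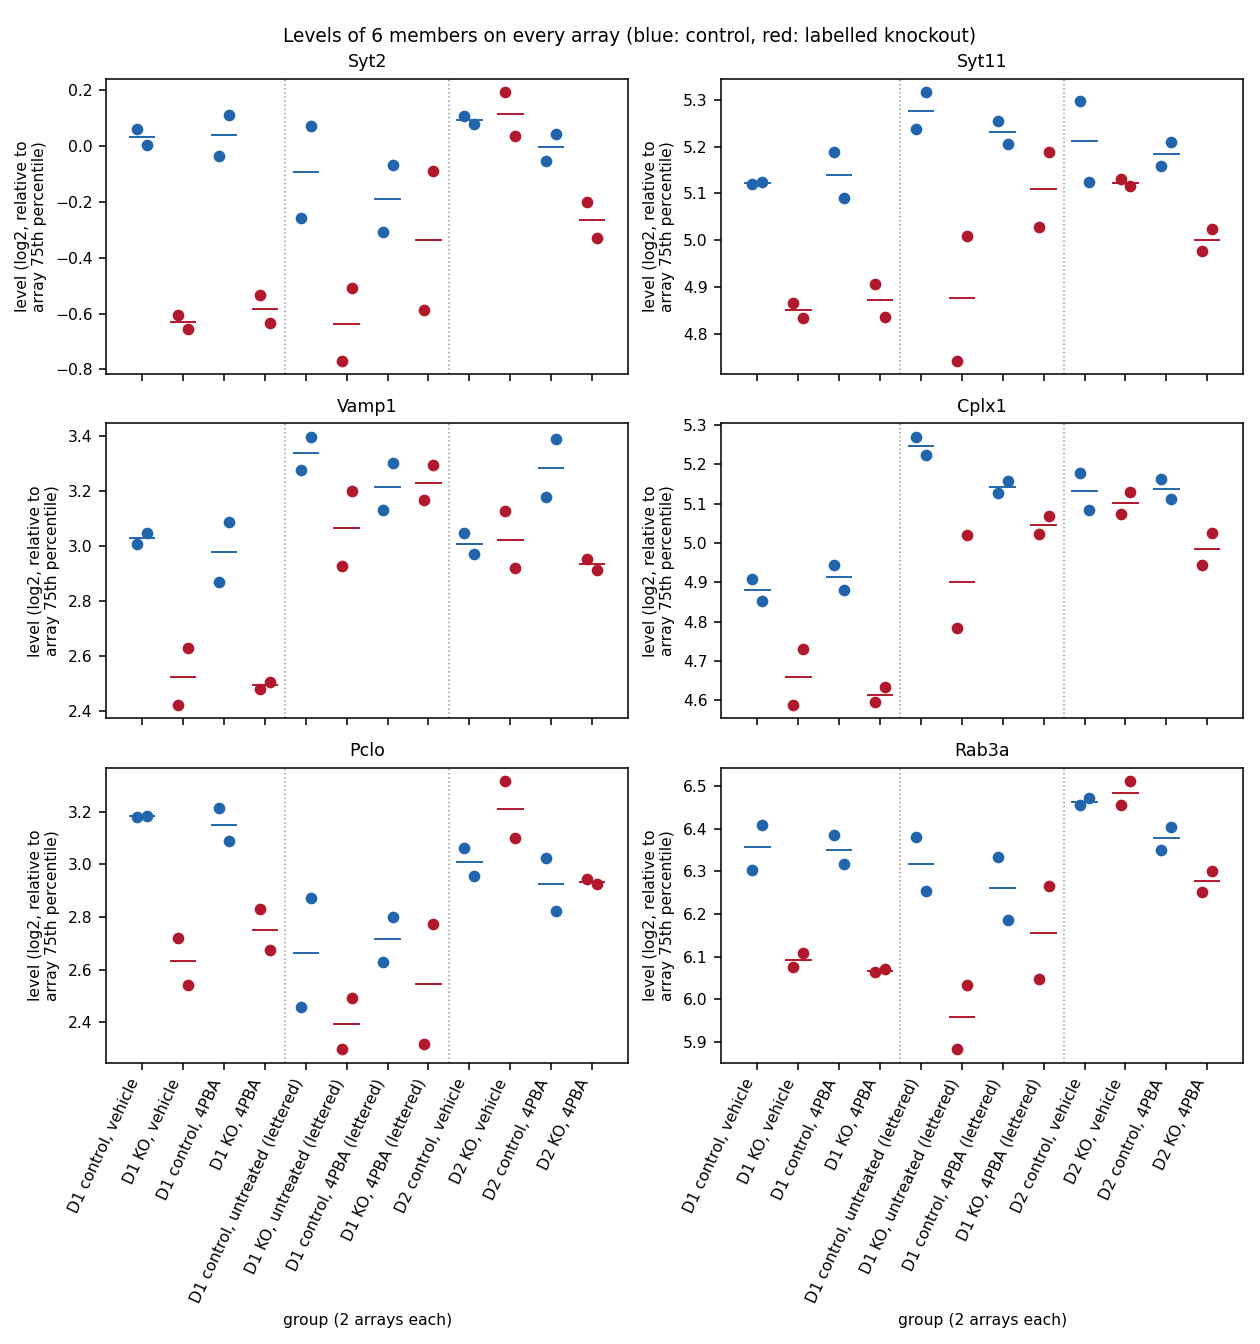
Levels (log2 relative to the 75th percentile of the array) of Syt2, Syt11, Vamp1, Cplx1, Pclo and Rab3a on all 24 arrays; points are arrays, short lines the mean of the 2 arrays of a group, and dotted lines separate the 3 slides. In the numbered Derlin-1 series (left) all KO arrays lie below all controls of the same injection. In the lettered 4PBA group array b lies within or above the controls for Syt2, Pclo, Vamp1 and Rab3a, but below them for Syt11 and Cplx1. For Vamp1 array a lies within the controls too.

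Genes of GABA handling fell in part and those of glutamate transport did not pass. Slc32a1, the vesicular GABA and glycine transporter, read 6.03 and 5.91 on vehicle controls, 5.73 and 5.62 on vehicle KO, 6.09 and 5.71 on untreated controls and 5.50 and 5.51 on untreated KO. All KO arrays were below the controls of their slide, a change of -0.34 (SE 0.10, limma adjusted p 0.0401). Gad1, which makes the bulk of GABA in cell bodies and terminals, read 3.91 and 3.92 against 3.76 and 3.69, and 3.96 and 3.93 against 3.76 and 3.64. Gad1 fell by 0.22 (SE 0.05, limma adjusted p 0.0159), and no array overlapped. Gad2, the second GABA-synthesising enzyme, had 0.11 (95% interval -0.06 to 0.28, limma adjusted p 0.428). Slc17a7 (VGLUT1, the transporter of parallel fibres) had -0.05 (95% interval -0.20 to 0.09, limma adjusted p 0.665). Slc17a6 (VGLUT2, the transporter of climbing and many mossy fibres) had the largest positive value, 0.53, but a wide interval from -0.18 to 1.25 (limma adjusted p 0.333). Its arrays were scattered, with -1.59 and -0.80 against -1.39 and -0.26 with vehicle, and -0.73 and -0.94 against -0.28 and 0.01 untreated.

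The size of this result depended on several choices. Of the 12 calls 3 (Syt2, Syt11 and Rph3a) were left after quantile normalization between arrays in place of the 75th percentile, where 4.15% of genes were called lower. The numbered and lettered series alone gave 0 and 3, with 0.0059% and 1.84% of genes called lower. Without 1 array at a time the count lay between 5 and 14, and the share of all genes called lower between 1.79% and 9.15%. It was 5 without untreated KO a (1.79%), 6 without KO vehicle 2 (2.19%), 7 without KO vehicle 1 (2.6%) and 7 without control vehicle 1 (3.54%). Each of the 12 kept its direction in all 20 settings, but the sizes moved. Rab3a ran from -0.36 to -0.18, Gad1 from -0.25 to -0.14, Slc32a1 from -0.44 to -0.22 and Sv2a from -0.25 to -0.14. The test of the lettered against the numbered series called 0 of 36 in limma (0.0059% of genes called). It gave 0 members at an unadjusted p under 0.05 (3.71% of genes), which does not show that the series are alike.

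A wider list of presynaptic genes, not members, was counted in the same comparison. Of 62 listed genes 59 were tested, 12 were called lower and 1 higher, against 5.37% and 5.26% of all genes, and their median change was -0.13. Among those called lower were Syt12 with -0.53 (limma adjusted p 0.0107), the RIM protein gene Rims4 with -0.52 (0.0237), Syt13 with -0.40 (0.00927), beta-synuclein (Sncb) with -0.39 (0.0104) and the endocytic dynamin Dnm3 with -0.34 (0.0294). The exception was Unc13b, a Munc13 form, which rose by 0.55 (limma adjusted p 0.00587). The fusion and calcium genes gave 4 lower of 23, the vesicle and transporter genes 2 of 15, the active zone genes 4 lower and 1 higher of 11, and the vesicle retrieval genes 2 of 10. The 12 became 6 under quantile normalization (4.15% of all genes called lower), 0 and 2 in the numbered and lettered series alone (0.0059% and 1.84%), and 3 without untreated KO a (1.79%). It was 5 to 7 without KO vehicle 2, KO vehicle 1, untreated control b or control vehicle 2, where 2.19%, 2.6%, 4.94% and 2.85% of all genes were called lower. It was 18 without untreated KO b, where the share over all genes rose to 9.15%.

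Marker genes of neurons and glia moved in the same arrays, and their part in the members' changes was not tested. In bulk tissue fewer cells of a type and less RNA per cell cannot be told apart. Of 11 granule neuron markers 5 were called lower in Derlin-1 KO without 4PBA (median -0.31), of 8 cerebellar interneuron markers 5 (median -0.42), and of 10 general neuron markers 2 (median -0.18), where 5.37% of all genes were called lower. Of 10 Purkinje cell markers 0 were called (median -0.01). Of 10 microglia markers 8 were called higher (median 1.24), and of 8 astrocyte and Bergmann glia markers 1, Gfap, where 5.26% of all genes were called higher. Every marker tested in the granule neuron, interneuron, Purkinje cell and microglia lists was well above background on all arrays. On the 4 KO arrays without 4PBA the mean of the interneuron list lay 0.35 to 0.51 below the controls of its slide, that of the granule neuron list 0.30 to 0.37 below, that of the general neuron list 0.12 to 0.43 below, and that of the members 0.06 to 0.20 below. Of 9 oligodendrocyte and myelin markers 0 were called, and their mean lay between -0.27 and 0.17 on these arrays. The Purkinje cell list lay between -0.06 and 0.07 there.

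**Figure D4:**
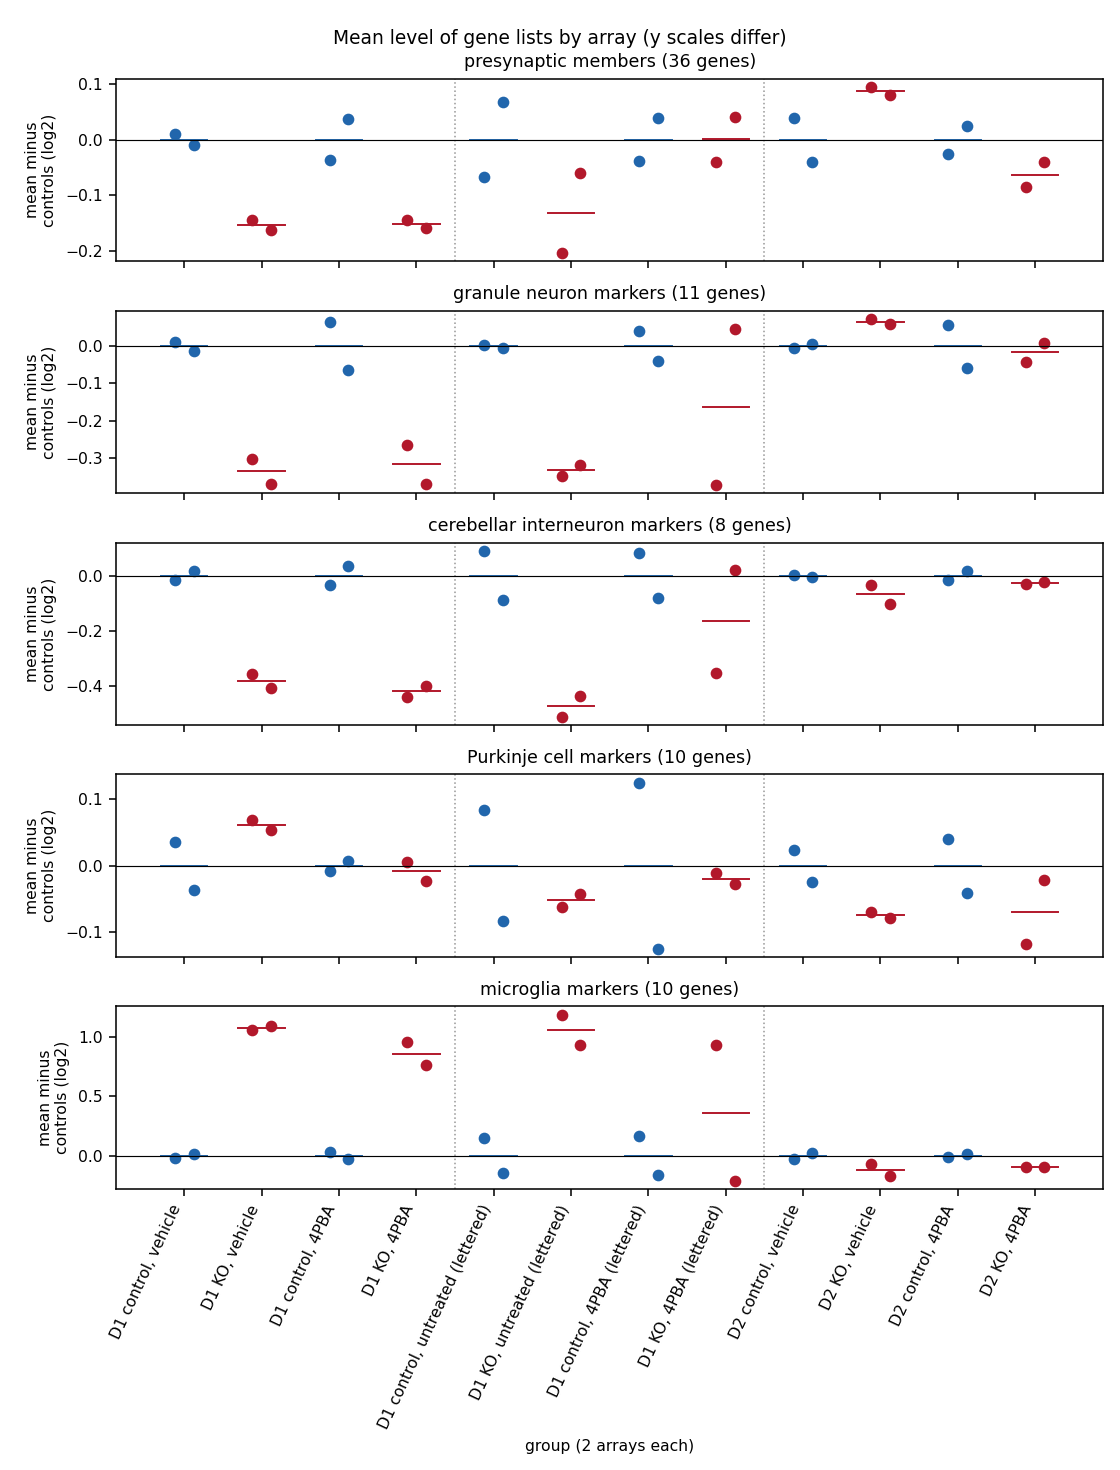
Mean level of the 36 members and of 4 cell type marker lists on each of the 24 arrays, minus the mean of the 2 controls of the same slide and injection (log2; the vertical scales differ between panels, points are arrays and lines are group means). On the array with the label Derlin-1 KO 4PBA b the granule neuron, interneuron and microglia means lie at 0.04, 0.02 and -0.21, within or near the controls.

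Under 4PBA the Derlin-1 KO and control arrays, which are other arrays than those above, gave 0 called members, where the share called over all genes was 0.0472%. There were 13 members at an unadjusted p under 0.05 (12.8% of all genes). A change below 0 was seen in 27 members (54.9%), or 23 after quantile normalization. The median member change was -0.15, against -0.02 for all genes. In 34 of 36 members the sign was that seen without 4PBA (76.4% of all genes), and in 6 members, Syt11, Napb, Snap91, Syp, Cplx1 and Gad1, every KO array lay below every control of its slide (3.96% of all genes). Syt2 had the largest negative change, -0.39 (SE 0.11, limma adjusted p 0.176): controls read -0.03 and 0.11 in the numbered and -0.31 and -0.07 in the lettered series, and KO arrays -0.53, -0.63, -0.59 and, on 4PBA array b, -0.09. All KO arrays but that one lay below the Syt2 controls of their slide. Sv2c and Slc17a6 had larger positive values, 0.46 and 0.43, with intervals that span 0 (limma adjusted p 0.607 and 0.64). The other Sv2c probe had 0.08. Sv2c read -4.37 and -4.01 against -3.89 and -3.76, and -5.31 and -4.86 against -4.25 and -4.83, and it was the 1 member with every KO array above its controls (2.53% of all genes). Slc17a6 read -1.54 and -0.50 against -0.59 and -0.48, and -0.76 and -0.69 against 0.44 and -1.13, with overlap in both series.

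The members whose arrays stayed apart under 4PBA had small changes. Cplx1 read 4.94 and 4.88 on controls and 4.60 and 4.63 on KO arrays of the numbered series, and 5.13 and 5.16 against 5.02 and 5.07 in the lettered one, a change of -0.20 (SE 0.06, limma adjusted p 0.196). Gad1 read 3.87 and 3.81 against 3.69 and 3.56, and 3.88 and 3.87 against 3.77 on both KO arrays, a change of -0.16 (SE 0.05, limma adjusted p 0.214). Syt11 read 5.19 and 5.09 against 4.91 and 4.84, and 5.25 and 5.21 against 5.03 and 5.19, a change of -0.19 (limma adjusted p 0.232). In all 3 the gap was wider in the numbered than in the lettered series, a difference that was not tested under 4PBA. Pclo had -0.28, Rph3a -0.24, Vamp1 -0.23 and Rab3a -0.19, and in these 4 lettered KO array b lay within or above its controls. For Vamp1 array a lay within them too (KO arrays 3.168 and 3.296, controls 3.130 and 3.304).

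The array with the label Derlin-1 KO 4PBA b decided this count. On it 9 members lay below both lettered 4PBA controls, against 21 to 27 on the other 7 arrays labelled Derlin-1 KO. Shares over all genes were not counted for this or for the next comparison. Of the 12 members called without 4PBA, 3 lay below both controls on that array, against 12, 12 and 11 on the other 3 arrays labelled Derlin-1 KO with 4PBA. Without that array 4 members were called, all lower, with 2.67% of genes called lower: Syt2 with -0.51 (limma adjusted p 0.00791), Pclo with -0.40 (0.0458), Rph3a with -0.33 (0.0224) and Rab3a with -0.25 (0.0351). The median member change in the numbered series was -0.21 under 4PBA and -0.18 with vehicle, and in the lettered series it was -0.05 and -0.15. On the numbered KO arrays with 4PBA the means of the marker lists, less the controls, were -0.44 and -0.40 for interneurons, -0.26 and -0.37 for granule neurons, -0.26 and -0.24 for general neurons and 0.96 and 0.76 for microglia. On lettered arrays a and b they were -0.35 and 0.02, -0.37 and 0.04, -0.24 and -0.09, and 0.93 and -0.21 in the same order of lists. The oligodendrocyte mean lay between -0.25 and -0.13 on the 4 KO arrays with 4PBA. Their part in the members' changes was not tested.

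The direct test of whether 4PBA altered the Derlin-1 KO effect called 0 members and gave 0 at an unadjusted p under 0.05 (0.0118% of genes called, 2.67% at that p), which does not show that the effects are alike. For Syt2 this difference of changes was 0.22 (SE 0.15, limma adjusted p 0.999), and 0.09 without the array with the label Derlin-1 KO 4PBA b. Comparing 4PBA with none inside a genotype also called 0 members. In Derlin-1 controls (0.0295% of genes called) 2 members, Nsf and Syt4, had an unadjusted p under 0.05 (2.1% of genes), and 26 members had a change below 0 (51% of genes). The 3 largest changes were those of Nsf with -0.20 (SE 0.06, unadjusted p 0.00826, limma adjusted p 1.0), Unc13c with -0.19 and Syt4 with -0.17. Nsf read 4.62 and 4.63 in the numbered and 3.83 and 3.73 in the lettered 4PBA controls, below every control without 4PBA of its series. Unc13c read 2.13 and 2.15 in the numbered and 1.43 and 1.83 in the lettered 4PBA controls, overlapping the controls without 4PBA in both series. Syt4 read 2.53 and 2.24 with 4PBA against 2.55 and 2.63 with vehicle, and 2.25 and 1.92 against 2.24 and 2.20 untreated. In Derlin-1 KO (0.0354% of genes called) the largest were those of Syn1 with 0.19, Syt2 with 0.17 and Rims2 with 0.17, and 0 members had an unadjusted p under 0.05 (6.66% of genes). Without the array with the label Derlin-1 KO 4PBA b these values were 0.12, 0.05 and 0.09. Of the 36 members 10 were below 0 (53.2% of genes). In the KO group given 4PBA Syn1 had levels of 4.01, 3.88, 4.45 and 4.75, and Rims2 of 1.06, 0.94, 0.99 and 1.33. Syn1 overlapped the KO arrays without 4PBA in the lettered series and Rims2 in the numbered one, and each lay above them in the other series.

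In the Derlin-2 line 0 members were called with vehicle (0.118% of genes called) and 0 under 4PBA (0.136%). With vehicle 1 member, Snap25, had an unadjusted p under 0.05 (8% of genes), and the median member change was 0.07, with 10 of 36 below 0 (51.3% of genes). Snap25 read 6.05 and 5.97 on controls and 6.16 and 6.45 on arrays labelled KO, without overlap, a change of 0.29 (SE 0.14, limma adjusted p 0.622). Every array labelled KO lay above both controls in 12 members and below in 3, where 21.7% and 24.5% of genes did so. The median over members was 0.10 on the array with the label Derlin-2 KO vehicle 1 and 0.06 on the other, measured against the mean of the 2 controls. In the same order marker list means were 0.07 and 0.06 for granule neurons, 0.05 and 0.02 for general neurons and -0.03 and -0.10 for interneurons. They were -0.07 and -0.17 for microglia and -0.16 and -0.31 for astrocytes and Bergmann glia. Their part in the members' changes was not tested. Without the array with the label Derlin-2 KO vehicle 1 a single array is left in its group, so no call is read from that fit.

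Among the members with the largest Derlin-2 vehicle changes Sv2c had wide spread and Unc13a a dim probe. Sv2c had 0.61 (95% interval -0.37 to 1.60), from -0.51 and 0.20 on controls to -0.21 and 1.13 on arrays labelled KO. Unc13a had 0.46 (-0.15 to 1.08), from -3.96 and -4.87 to -3.95 on both arrays. Syn1 had 0.34 (-0.07 to 0.74), from 4.23 and 4.03 to 4.38 and 4.54, and its KO arrays lay above both controls.

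Under 4PBA the Derlin-2 KO arrays had 22 members below 0 (58% of all genes), but 17 after quantile normalization, so no direction is given for the group. The median was -0.03, equal to that of all genes to 2 decimals. In 13 members both KO arrays lay below both controls (24.5% of genes) and in 4 above (14%). Vamp1, Nsf and Gad1 had an unadjusted p under 0.05 (4.7% of genes). Vamp1 read 3.18 and 3.39 on controls and 2.95 and 2.92 on KO, a change of -0.35 (SE 0.12, limma adjusted p 0.792). Gad1 read 3.82 and 3.87 against 3.67 and 3.59, a change of -0.21 (SE 0.07, limma adjusted p 0.76), and Nsf had -0.20 (limma adjusted p 1.0). Slc17a6 had the largest value, -0.72 (95% interval -1.73 to 0.29), from -1.03 and -0.40 to -1.47 and -1.40, while with vehicle it had 0.29 (-0.72 to 1.30), from -1.09 and -1.32 to -0.71 and -1.11. The groups overlapped with vehicle and did not under 4PBA. Unc13a had -0.32, from -3.85 and -3.78 to -4.01 and -4.25.

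Within the Derlin-2 line 4PBA against vehicle called 0 members in controls (0.13% of genes called) and 0 in KO (0.136%). In controls 1 member, Vamp1 with 0.28, had an unadjusted p under 0.05 (5.16% of genes), and the largest values were those of Unc13a with 0.60 (SE 0.29, limma adjusted p 0.979), Slc17a6 with 0.49 and Sv2c with 0.32. There 18 members were below 0 (59.6% of genes), and 12 after quantile normalization. In KO arrays 6 members had an unadjusted p under 0.05 (9.21% of genes): Syt1, Syt2, Snap25, Nsf, Rab3a and Gad1. The largest values were those of Slc17a6 with -0.52, Bsn with 0.40 and Syt2 with -0.38 (SE 0.15, limma adjusted p 0.458), where Syt2 read 0.19 and 0.04 with vehicle and -0.20 and -0.33 with 4PBA. Bsn, which encodes the active zone scaffold Bassoon, read 2.05 and 2.41 with vehicle and 2.52 and 2.74 with 4PBA. The number of members below 0 here was 30 with the 75th percentile (62% of genes) and 17 after quantile normalization, so no direction is given for the group. Whether 4PBA altered the Derlin-2 KO effect gave 0 calls and 1 member, Vamp1, at an unadjusted p under 0.05 (0.0768% of genes called, 5.15% at that p).

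The Derlin-1 and Derlin-2 KO effects without 4PBA were compared directly, and 0 members were called (0.065% of genes called). At an unadjusted p under 0.05 there were 15 members (14% of genes). The median difference was -0.23 against -0.00323 over all genes, and 31 of 36 differences were below 0, or 26 after quantile normalization. The largest were those of Syn1 with -0.77 (SE 0.23, limma adjusted p 0.176), Syt2 with -0.63 (SE 0.19, 0.173), Pclo with -0.61 (SE 0.19, 0.191), Snap25 with -0.57 (SE 0.17, 0.17) and Rph3a with -0.48 (SE 0.14, 0.173). Derlin-1 KO thus had a call in 12 members and Derlin-2 KO in 0. The direct test over all arrays called 0 members, which does not show that the effects are alike. Without the 2 arrays named at the start the Snap25 difference was -0.72. Of these the Derlin-2 array goes against its label in Derl2 but not in Derl3. Without it a single array is left in the Derlin-2 KO vehicle group, so no call is read from that fit. A KO effect that differs between lines cannot be told apart from one that differs between slides.

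Control arrays also differed between the slides, and these values are given as a description, because line, slide and, for the lettered series, scan day coincide. On the brighter probe of Sv2c, a minor vesicle glycoprotein, the 4 Derlin-2 controls read -0.51, 0.20, -0.37 and 0.69, and the 4 numbered Derlin-1 controls -4.16, -4.07, -4.37 and -4.01. This difference of 4.16 was the largest of all 16935 genes between these slides, and no array of one slide overlapped the other. A second probe of the same transcript differed by 0.30. On the brighter probe of Cplx2 the lettered controls read 5.43, 5.60, 5.46 and 5.38 and the numbered Derlin-1 controls 7.31, 6.90, 6.66 and 7.28, which is 1.57 lower in the lettered series, or 2.97-fold. Between these slides 300 of the 16935 genes shifted by at least as much. The second Cplx2 probe, again of the same transcript, differed by -0.40. Nsf was 0.82 lower and Unc13a 0.79 higher in the lettered controls on their brightest probes. Every KO and 4PBA effect above is a difference within slides; the comparison of the lines and that of the 2 Derlin-1 series set such differences from different slides side by side.

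**Figure D5:**
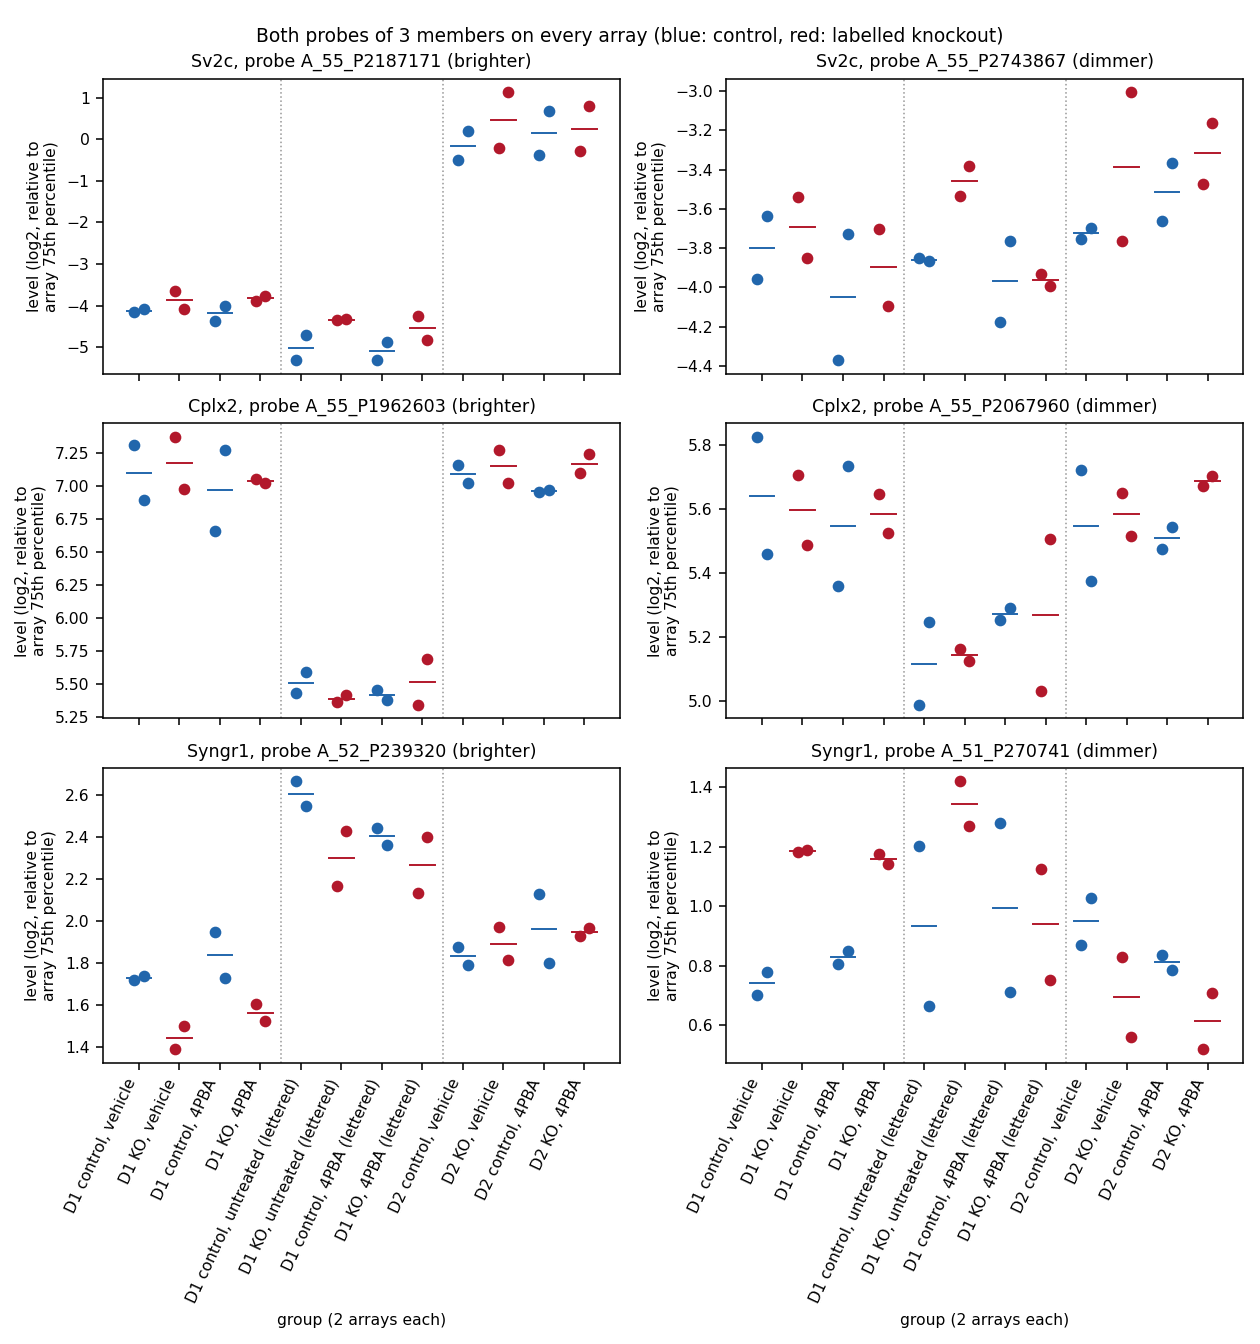
Levels (log2 relative to the 75th percentile of the array) of both probes of Sv2c, Cplx2 and Syngr1 on all 24 arrays, with the brighter probe on the left; points are arrays, short lines group means, and dotted lines separate the slides. Sv2c and Cplx2 shift between slides on the brighter probe (4.16 and 1.57) far more than on the dimmer one, and the Syngr1 probes have changes of opposite sign in the numbered Derlin-1 series.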

How the data were processed

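Intensity was taken from the authors' deposited scanner files, in which gProcessedSignal is the background-subtracted Cy3 brightness of each of 59305 spots; these were written by Agilent Feature Extraction 10.7.1.1, per the submitters' processing notes, and the headers name the mm9 build. For probes with a single spot the deposited series table held the same values on a linear scale. With that table in place of the scanner files, a further alternative, 11 members were called in Derlin-1 KO without 4PBA, all lower. There 5.27% of all genes were called lower. The log2 intensity was reduced by the log2 of the array's 75th percentile over all these spots, which lay between 890 and 1169. The 52 to 637 outlier spots of an array were then left out. No spot of a member was saturated.

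Spots of a probe were averaged, and 38115 of 56605 probes that were well above background on both arrays of a group were kept. Probes were named by matching their transcript accession to a RefSeq gene table (GRCm38.p6), and the brightest probe stood for a gene. limma 3.58.1 in R 4.3.3 fitted 12 group means (12 residual degrees of freedom), with eBayes and two-sided tests. The fit was tested on simulated data. Each KO or 4PBA effect is a difference within slides, the comparisons of lines and of Derlin-1 series set such differences from different slides against each other, and Derlin-1 comparisons average the numbered and lettered series with equal weight. The number of arrays limits the precision: the median standard error of a member was 0.09 in the Derlin-1 line without 4PBA and 0.13 in the Derlin-2 line.

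The members and lists were chosen with earlier results of these data known. Values per array are given for called members, for the 3 members with the largest change in each comparison of groups, and for 1 member of each other role. Alternatives were quantile normalization, normexp (offset 50, on the median signal, since the mean signal column was not used here), other probe filters, every probe, a trended robust variance, only the groups compared, each series alone, a replicate block, leaving out each array, and leaving out the 2 arrays whose Derl2 or Derl3 level goes against the label. 1 gene of the wider presynaptic list is counted but not reported by name here.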

Additional observations from a re-analysis of the deposited data

How the results depend on the processing

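The 12 members called in Derlin-1 KO without 4PBA became 3 under quantile normalization (4.15% of all genes called lower). The count was 3 and 0 in the lettered and numbered series alone (1.84% and 0.0059%). It was 1 with only the groups of the comparison in the fit (1.45%). The last 3 settings hold fewer arrays in the contrast or in the fit. Why the counts fell was not tested for any of these settings. Leaving out 1 array gave 5 to 14 members there and 0 to 4 in Derlin-1 KO under 4PBA, and in the other 10 comparisons 0. Without the 2 arrays whose Derl2 or Derl3 level goes against the label a single array is left in each of their groups. The median member change in Derlin-1 KO under 4PBA was then -0.20, against -0.01 over all genes. The Snap25 difference between the Derlin-1 and the Derlin-2 effect was -0.72. With no filter on dim probes 1 member, Nsf, was called lower for 4PBA against vehicle in Derlin-2 KO (-0.32, limma adjusted p 0.0488). There 0.476% of genes were called lower and 8.05% in either direction, and the cause was not tested. No called value changed sign, whereas 356 of the 4801 tests that kept their side of the threshold changed sign without being called. Over 20 settings Syt2 and Syt11 were called in 18, Cplx1 and Rab3a in 17, Rph3a and Gad1 in 15, Vamp1 in 14, Nsf in 13, Sv2a in 10, Pclo in 8, Slc32a1 in 7 and Syngr1 in 6.

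Arrays of a slide share only a replicate number or letter: correlations of same-numbered arrays' deviations ran from -0.16 to 0.40 over the slides. With the replicate block 16 members were called in Derlin-1 KO without 4PBA, the 12 plus Snap25, Syn1, Unc13c and Rims2 (6.13% of all genes called lower), and 2 in the comparison of the Derlin-1 with the Derlin-2 effect, Syt2 and Pclo (limma adjusted p 0.0483 each, 0.39% of genes called). All 36 members were well above background on all arrays.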

Other observations

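Members that were not called on their brightest probe in Derlin-1 KO without 4PBA had some second probes that were, in a limma fit of every probe in which 2.55% of probes were called lower and 2.53% higher. Of 17 other probes of 14 members 14 had a change below 0, 4 were called lower and 0 higher. The second Syn2 probe, on another RefSeq transcript of synapsin II than the brighter one, read 0.69 and 0.62 on vehicle controls, 0.20 and 0.47 on vehicle KO, 0.85 and 1.0 on untreated controls and 0.66 and 0.54 on untreated KO. Its change was -0.32 (SE 0.09, limma adjusted p 0.0453), against -0.11 on the brighter probe, and no KO array overlapped its controls. The second Unc13c probe, of the same transcript as the brighter one, read 1.37 and 1.06 against 0.94 and 0.79, and 1.37 and 1.58 against 0.67 and 1.0. It fell by 0.50 (SE 0.12, limma adjusted p 0.0312), again without overlap.

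A dimmer Rims1 probe, on another transcript than the brighter one, read -0.93 and -1.39 against -1.63 and -1.65, and -2.0 and -1.88 against -2.38 and -2.34. Its KO arrays lay below all controls of their slide, and the change of -0.45 (SE 0.13) was not called in limma (adjusted p 0.054). The second Snap25 probe had -0.45 (SE 0.14, limma adjusted p 0.0801), from 1.97 and 2.0 to 1.63 and 1.55 and from 2.50 and 2.78 to 1.83 and 2.42, with no overlap. These genes were picked for their second probes' values after these were seen.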
